A study of Mus musculus with 15 samples.

Results

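The genes described are 8 members of the S100 family of small calcium-binding proteins, S100a1, S100a4, S100a6, S100a8, S100a9, S100a10, S100a11 and S100a13, out of 27343 gene names measured on the arrays. They were chosen by gene name, and the family was selected because S100a8 and S100a9 responded unevenly to differentiation medium, so differences between mHep and eHep cells are given for these genes as a description with no test. Each of the 8 genes had 1 probe.

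RNA was measured on 15 Agilent 1-colour arrays. The 7 mHep arrays held liver-derived expandable hepatocytes, taken here as those grown in differentiation medium because the labels do not spell the name out. The 7 eHep arrays held the expandable cells taken here as those in expansion medium, and culture lasted 21 days. In each medium, 3 arrays came from a 129S1 mouse (129S1-No1), 3 from a C57B6 mouse (C57B6-No1) and 1 from a second 129S1 mouse (129S1-No2), and a single array held primary hepatocytes isolated from C57B6 mice by collagenase perfusion. The labels do not say whether repeat arrays of a mouse came from separate cultures, so arrays were averaged per mouse, and n is 3 mice. The primary array stood alone, so comparisons with it take its spread to be that of the cultured means, and 2 of the 3 mice were of another strain than the primary cells.

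S100 proteins carry a pair of EF-hand motifs, loops that bind calcium, and most act as dimers that change shape on binding it and then grip a partner protein. S100A8 and S100A9 pair to form calprotectin, which neutrophils and monocytes hold in quantity and which acts outside the cell as a danger signal through Toll-like receptor 4 and the receptor for advanced glycation end products. S100A10 differs in that it does not bind calcium and works in a complex with annexin A2, while S100A11 binds annexin A1.

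The probes for S100a8 and S100a6 are shown because their letters hold a readable calcium-binding loop, which shows what part of the message was measured. Capitals mark the last 10 codons of the loop, found by a search of the open reading frame. The S100a8 probe lay on chromosome 3 at chr3:90473778-90473837 in mm9, plus strand, and the S100a6 probe at chr3:90418160-90418219, plus strand.
S100a8 probe: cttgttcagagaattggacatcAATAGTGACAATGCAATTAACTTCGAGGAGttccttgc
S100a6 probe: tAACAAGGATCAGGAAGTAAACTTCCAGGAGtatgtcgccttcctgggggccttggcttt

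All 8 genes lie on chromosome 3. By probe position in mm9, S100a1 (from 90315133), S100a13 (from 90319950), S100a4 (from 90409842), S100a6, S100a8 and S100a9 (from 90496585) formed a cluster, with S100a11 (from 93330017) and S100a10 (from 93368437) further along. The RefSeq start windows of S100a1 and S100a13 (250 bases before to 50 after each gene's start) faced opposite ways and shared 204 bases. RefSeq windows of GRCm38.p6 were found for 7 of the 8 genes, S100a10 having none in the table. The windows of S100a8 and S100a9 are shown because these genes responded unevenly to differentiation medium. Those of S100a6 and S100a11 are shown because both were higher in culture than in primary cells. Capitals mark matches on either strand to 4 motifs that do not overlap here: the TATA box TATAAA, the AP-1 site TGANTCA, the C/EBP site TTNNGCAA and the STAT site TTCNNNGAA. The windows are chr3:90668821-90669120 (plus) for S100a8, chr3:90695672-90695971 (minus) for S100a9, chr3:90612644-90612943 (plus) for S100a6 and chr3:93520246-93520545 (plus) for S100a11.
S100a8 promoter: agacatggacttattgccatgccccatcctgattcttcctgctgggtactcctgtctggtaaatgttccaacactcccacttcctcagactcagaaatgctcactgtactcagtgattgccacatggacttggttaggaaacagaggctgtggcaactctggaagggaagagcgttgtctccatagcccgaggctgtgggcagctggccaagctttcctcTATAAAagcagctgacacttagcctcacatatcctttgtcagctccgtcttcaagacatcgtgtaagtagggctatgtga
S100a9 promoter: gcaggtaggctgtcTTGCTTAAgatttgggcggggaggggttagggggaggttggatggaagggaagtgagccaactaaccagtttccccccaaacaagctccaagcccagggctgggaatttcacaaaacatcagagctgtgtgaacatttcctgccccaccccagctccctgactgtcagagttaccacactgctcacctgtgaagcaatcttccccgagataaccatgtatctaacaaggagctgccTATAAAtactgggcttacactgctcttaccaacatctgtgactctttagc
S100a6 promoter: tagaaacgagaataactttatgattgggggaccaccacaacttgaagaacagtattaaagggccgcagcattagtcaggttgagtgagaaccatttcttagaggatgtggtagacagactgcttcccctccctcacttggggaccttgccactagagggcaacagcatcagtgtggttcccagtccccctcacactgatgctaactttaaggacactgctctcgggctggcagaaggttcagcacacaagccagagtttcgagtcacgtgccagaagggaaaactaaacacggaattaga
S100a11 promoter: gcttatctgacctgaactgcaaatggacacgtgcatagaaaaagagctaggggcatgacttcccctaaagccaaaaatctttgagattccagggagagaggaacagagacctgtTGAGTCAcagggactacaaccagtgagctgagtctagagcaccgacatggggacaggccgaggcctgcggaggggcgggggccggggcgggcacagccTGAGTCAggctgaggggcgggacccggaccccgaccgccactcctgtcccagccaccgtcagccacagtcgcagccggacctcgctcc

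The TATA letters began at position -30 of S100a8, at position 0 of S100a9 and, among the windows not shown, at position -31 of S100a4, where 0 is the annotated first base of the gene. Of all 32851 windows in the table, 13.6% held these letters. The C/EBP letters were found once, at position -236 of S100a9, against 10.8% of all windows. The AP-1 letters stood at positions -136 and -38 of S100a11 and in no other of the 7 windows, against 7.81% of all windows. No STAT match was found in the 7 windows, against 8.30% of all windows. S100a6, S100a1 and S100a13 had no match to any of the 4 motifs, which says only that these letters are not in those windows.

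Levels below are log2 processed signals minus the 75th percentile of the array, so a level of 0 equals that percentile, and a difference of 1 is a doubling. Levels are compared only within a gene. The share of probes that the scanner software called well above background was 48.8% to 61.9% for cultured cells and 36.3% for primary cells. A member differing from primary cells had to pass an adjusted p of 0.05 in limma and a log2 difference of at least 1. Among all genes, the median difference from primary cells was -0.29 in mHep cells and -0.13 in eHep cells, and other scalings of the arrays put these medians between 0.19 and 0.29 in mHep cells and between 0.29 and 0.34 in eHep cells, and the normexp background at -0.46 and -0.31. With quantile normalization, genes higher and lower numbered 1369 and 852 in mHep against primary cells, in place of 631 and 928, and 1786 and 1341 in eHep against primary cells, in place of 937 and 1515. Between mHep and eHep cells they numbered 94 and 16, in place of 201 and 66.

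Hepatocyte markers set the groups apart. Between mHep and eHep cells, 4 of 8 tested (Alb, Apoa1, Ttr and Ahsg) passed as higher in limma. Of 9 measured hepatocyte markers, 7 were well above background on all mHep arrays, 3 on all eHep arrays and all 9 on the primary array. Their summed signal, in units of the array's 75th percentile, ran from 163 to 1014 on mHep arrays and from 5.51 to 18.5 on eHep arrays, and was 7265 on the primary array. Cyp2e1 was not well above background on any cultured array, and Ttr and Cps1 were not on any eHep array. In these bulk samples, fewer cells of a type and less RNA per cell cannot be told apart.

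S100a8, which encodes the smaller chain of calprotectin, showed a different order of levels in each mouse. In mHep cells it stood at 2.96, 2.18 and 2.45 on the arrays of 129S1-No1, at 6.64, 5.89 and 6.19 on those of C57B6-No1 and at -3.57 on that of 129S1-No2. In eHep cells the levels were 2.73, 3.32 and 2.72 with 129S1-No1 and -2.76, -2.65 and -3.31 with C57B6-No1, and the array of 129S1-No2 gave -5.49, where the probe was not well above background. The primary array stood at 0.07. In C57B6-No1 all mHep arrays were above all eHep arrays, by 9.15 on the log2 scale or 568-fold, whereas in 129S1-No1 the arrays of the media overlapped and their means differed by -0.39. In 129S1-No2 the mHep array was at least 3.79-fold higher than the dark eHep array.

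S100a9, the partner chain, moved further still. In mHep cells it stood at -4.59, -4.49 and -3.39 for 129S1-No1, at 5.49, 5.04 and 6.62 for C57B6-No1 and at -4.09 for 129S1-No2. In eHep cells it stood at -1.84, -1.34 and -2.16 for 129S1-No1, and was not well above background on the 3 arrays of C57B6-No1 (-5.37, -5.85 and -5.68) or on that of 129S1-No2 (-5.99). The primary array stood at 2.32. In C57B6-No1 the mHep arrays were at least 1283-fold higher than the eHep arrays. In 129S1-No1 all 3 mHep arrays lay below all 3 eHep arrays, by -2.38 on the log2 scale, and in 129S1-No2 the mHep array was at least 3.54-fold higher. Thus the C57B6-No1 mHep arrays were the only cultured arrays on which S100a9 exceeded the primary level.

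**Figure D1:**
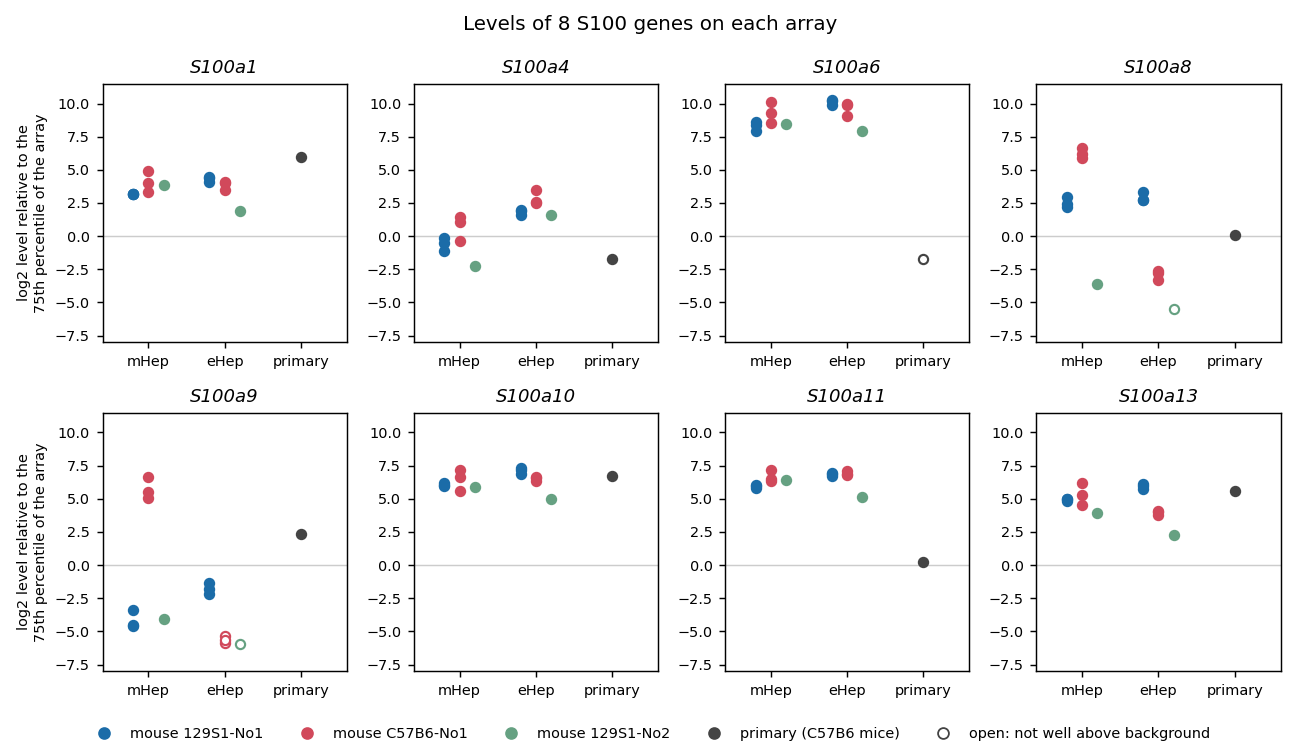
Each panel plots the log2 level of a gene, relative to the array's 75th percentile, on the 7 mHep, 7 eHep and 1 primary arrays, a point for each array, coloured by mouse and open where the probe was not well above background. S100a8 and S100a9 spread over 10.2 and 11.2 log2 units among mHep arrays, while S100a6 and S100a11 sit far above the primary array in every cultured sample.

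All arrays of 129S1-No1 were scanned in the later session, and those of 129S1-No2 in the earlier, as was the primary array. Differences between the 129S1 mice, or between 129S1-No1 and primary cells, therefore cannot be told apart from scan session. Of the C57B6-No1 arrays, the third pair was scanned earlier than the others. As a description, S100a8 differed by 9.50 between media on that pair and by 8.97 on the pairs of the later session, and S100a9 by at least 11.6 and at least 9.71, its eHep readings being raised to the lowest signal well above background. Over the 3 mice the difference between media ranged over 9.54 log2 units for S100a8 and 13.7 for S100a9, or at least 12.7 with the dim eHep readings of C57B6-No1 raised in the same way, where the median range over 14594 genes tested was 1.35 and the 90th percentile 3.17. A wider range was found for 0.13% of genes in the case of S100a8 and for 0 genes in that of S100a9, values that the choice of the family used. Across the 14 cultured arrays, which share mice and media, the levels of S100a8 and S100a9 correlated at r = 0.83.

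**Figure D2:**
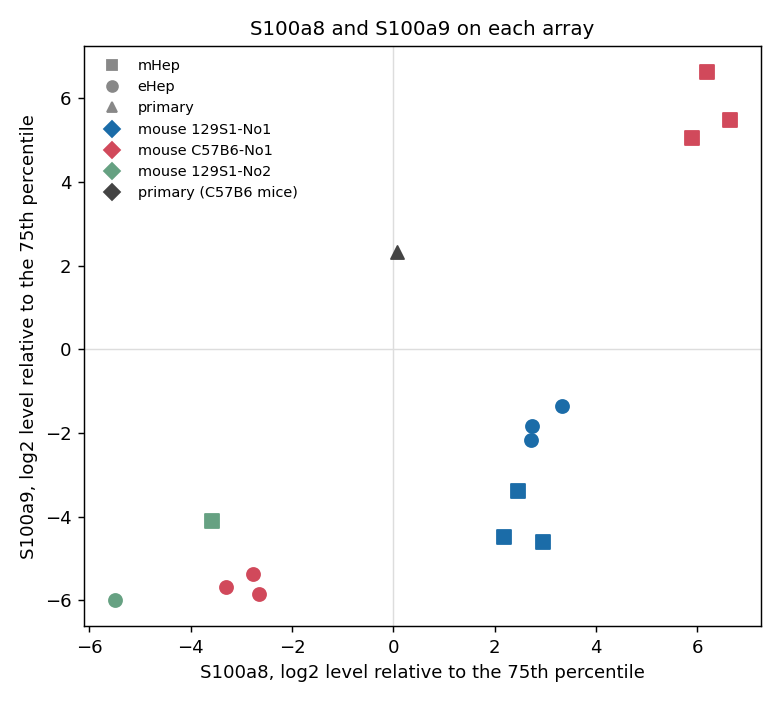
The log2 level of S100a9 is plotted against that of S100a8, each relative to the array's 75th percentile, with 1 point for each of 15 arrays, shaped by group and coloured by mouse. The mHep arrays of C57B6-No1 stand alone at the upper right. On all 129S1-No1 arrays S100a8 lies above its primary level and S100a9 below its own, though among eHep arrays theirs are the highest S100a9 levels.

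Against primary cells, neither calprotectin gene passed the test when mice were averaged. S100a8 averaged 1.73 ± 4.95 in mHep cells (SD, n = 3 mice) against 0.07 on the primary array, a log2 difference of 1.67 with a standard error of 4.15 and a limma adjusted p of 0.82. In eHep cells its mean of -1.83 ± 4.31 (SD, n = 3) gave a difference of -1.90 and a limma adjusted p of 0.79. S100a9 averaged -0.84 ± 5.68 in mHep cells and -4.47 ± 2.33 in eHep cells (SD, n = 3 mice each) against 2.32 on the primary array, with limma adjusted p of 0.62 and 0.27. The mean of S100a8 in mHep cells rested on C57B6-No1, since without that mouse the difference from primary cells was -0.59.

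In C57B6-No1 alone, the mouse of the same strain as the primary cells, S100a8 differed from the primary array by 6.17 in mHep cells and by -2.98 in eHep cells. S100a9 differed by 3.40 in mHep cells and was at least 121-fold lower in eHep cells. These values come from arrays of 1 mouse whose medium contrast chose the genes, and are given with no test.

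S100a4, which binds non-muscle myosin and is expressed by motile and mesenchymal cells, was lower in mHep than in eHep cells of every mouse. Its levels ran from -2.22 to 1.46 over the 7 mHep arrays (median -0.37) and from 1.58 to 3.49 over the 7 eHep arrays (median 2.00), so the groups did not overlap, as they did for the other 7 genes. By mouse it differed by -2.43 (129S1-No1), -2.14 (C57B6-No1) and -3.80 (129S1-No2). Between mHep and eHep cells, limma called 1.38% of all genes tested higher and 0.452% lower. This contrast was used to choose the family, so nothing is read from that difference. Against -1.72 on the primary array, S100a4 averaged -0.70 ± 1.47 in mHep cells and 2.09 ± 0.67 in eHep cells (SD, n = 3 mice each). Neither difference passed, at 1.01 ± 1.12 and 3.80 ± 1.12 (SE), with limma adjusted p of 0.58 and 0.062. The eHep difference was above 0 in 3 of 3 mice and passed under 11 of 24 alternative settings, among them the median scaling (4.27, limma adjusted p 0.030), arrays of the earlier scan alone (4.25, limma adjusted p 0.039) and leaving out 129S1-No2 (4.06, limma adjusted p 0.028). It did not pass without 129S1-No1, without C57B6-No1 or with the normexp background, at limma adjusted p of 0.099, 0.12 and 0.088.

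S100a6 and S100a11 were far higher in culture than in primary cells. These were the 2 of 8 members that passed in each comparison, and 0 passed as lower. Of all genes tested, 4.29% passed as higher and 6.32% as lower in mHep against primary cells, and 6.53% as higher and 10.6% as lower in eHep against primary cells. Both comparisons share the primary array. The median difference of the 8 genes was 0.22 in mHep and -1.02 in eHep cells. All 8 were tested, but S100a6 entered through the cultured arrays alone, since its probe was not well above background on the primary array.

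S100a6, also called calcyclin, is a regulator of growth and the cytoskeleton. In mHep cells its levels were 7.96, 8.59 and 8.40 with 129S1-No1 and 10.1, 9.25 and 8.52 with C57B6-No1, and 129S1-No2 gave 8.45. In eHep cells they were 9.92, 10.3 and 10.2 with 129S1-No1 and 9.89, 9.97 and 9.07 with C57B6-No1, and 129S1-No2 gave 7.97, against -1.70 on the primary array. Every cultured array was above the primary array by more than 9 log2 units, and no probe was saturated on any array. The gene was at least 1343-fold higher in mHep cells and at least 1970-fold higher in eHep cells than in primary cells, with limma adjusted p of 0.0022 and 0.0016. Between media the means of 8.69 ± 0.54 in mHep cells and 9.24 ± 1.13 in eHep cells (SD, n = 3 mice each) lay within the spread over mice, with mHep lower in 129S1-No1 by -1.81 and higher in 129S1-No2 by 0.49.

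S100a11, also called calgizzarin, binds annexin A1 at membranes. Its levels ran from 5.82 to 7.16 over mHep arrays (median 6.36) and from 5.15 to 7.12 over eHep arrays (median 6.88), against 0.24 on the primary array, where the probe was well above background. The mean was 6.33 ± 0.37 in mHep cells and 6.31 ± 1.00 in eHep cells (SD, n = 3 mice each), 68.4-fold and 67.3-fold above the primary array. The log2 differences of 6.10 and 6.07 each had a standard error of 0.82, with limma adjusted p of 0.0067 and 0.0052. Without C57B6-No1 the mHep difference was 5.93 and missed the threshold at a limma adjusted p of 0.052.

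**Figure D3:**
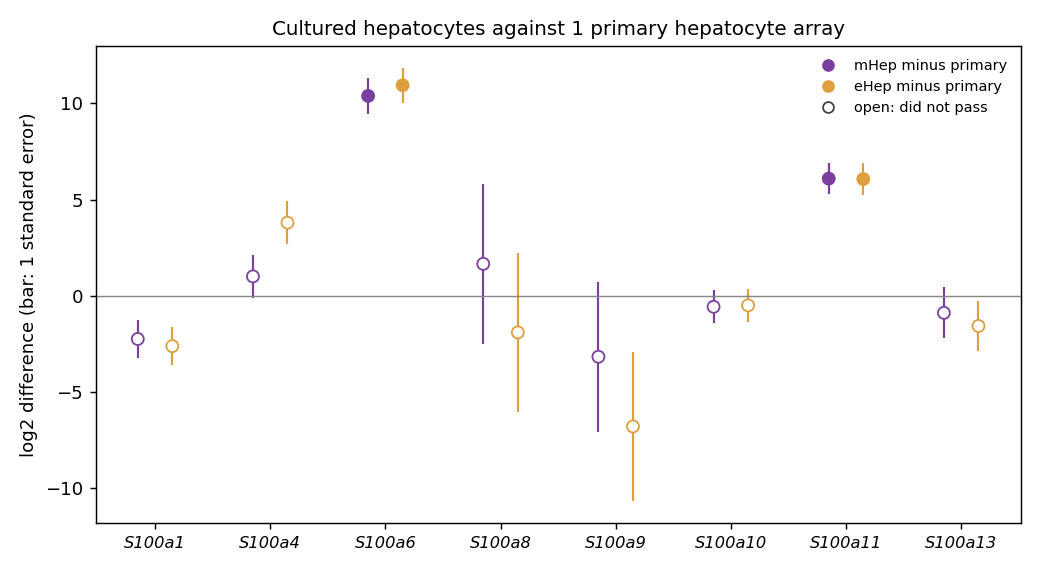
The log2 difference from the single primary array is plotted for each of the 8 genes, for mHep and then eHep cells, with bars of 1 standard error from the limma fit and filled points where the test was passed. S100a6 and S100a11 lie 6.07 to 10.9 log2 units above 0 and the other 6 genes have open points in both media.

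S100a10, the subunit of the annexin A2 complex that docks plasminogen at the cell surface, differed little between the groups. Its mean was 6.13 ± 0.30 in mHep cells and 6.21 ± 1.09 in eHep cells (SD, n = 3 mice each) against 6.70 on the primary array. The differences of -0.57 and -0.49 had standard errors of 0.86 and 0.85 and limma adjusted p of 0.70 and 0.73. With quantile normalization they were 1.04 and 0.96, so their sign depended on the scaling.

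S100a1, best known as a regulator of calcium cycling in muscle, was at its highest on the primary array. Its levels ran from 3.15 to 4.95 over mHep arrays (median 3.36) and from 1.90 to 4.46 over eHep arrays (median 4.05), against 5.96 in primary cells, so every cultured array lay below the primary array. The differences of -2.24 in mHep and -2.61 in eHep cells did not pass, with limma adjusted p of 0.19 and 0.12. With arrays as samples both passed, at -2.28 and -2.19 with limma adjusted p of 0.046 and 0.048. Arrays of a mouse share their source, so those p-values are too small. Of 24 alternative settings, the mHep difference passed under 3 and the eHep difference under 5, the earlier scan among these (-3.26). In that scan C57B6-No1 and 129S1-No2 gave 1 array each per medium and 129S1-No1 gave none. The lowest eHep array, at 1.90, was that of 129S1-No2.

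S100a13, which assists the unconventional release of fibroblast growth factor 1, averaged 4.73 ± 0.70 in mHep cells and 4.05 ± 1.82 in eHep cells (SD, n = 3 mice each) against 5.61 on the primary array. Neither difference from primary cells passed, at -0.88 and -1.56 with limma adjusted p of 0.69 and 0.45. Between media it was lower on all mHep arrays of 129S1-No1, by -1.02, and higher on all mHep arrays of C57B6-No1, by 1.38, and on that of 129S1-No2, by 1.68. Its levels over the 14 cultured arrays correlated with those of S100a8 at r = 0.81. With those of S100a1, whose window it shares in part, they correlated at r = 0.76. Levels of S100a1 correlated with S100a11 at r = 0.92 and with S100a10 at r = 0.91.

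**Figure D4:**
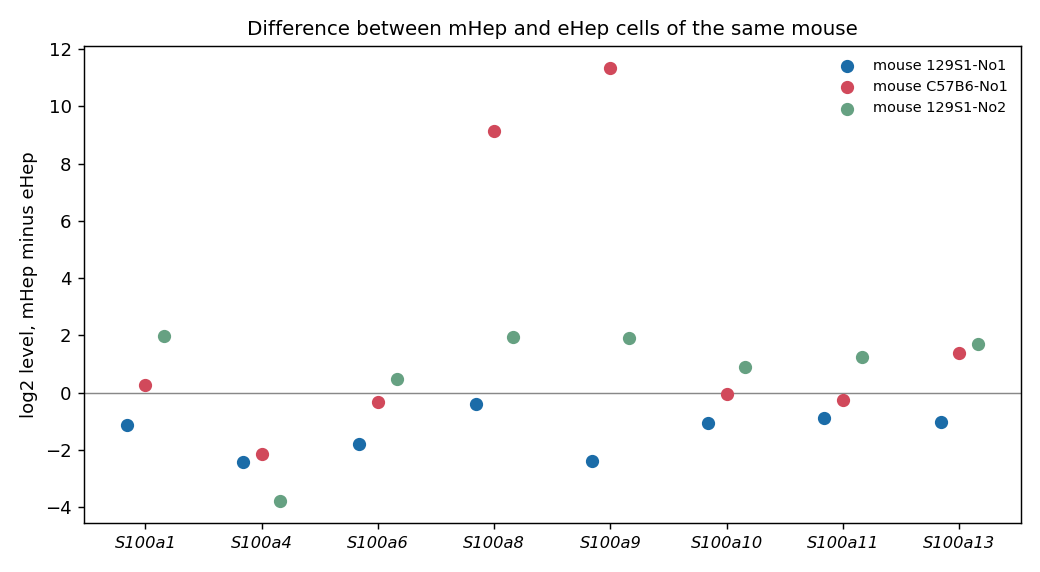
For each of the 8 genes, points give the log2 level in mHep cells minus that in eHep cells of the same mouse, coloured by mouse. S100a4 is below 0 in all 3 mice, and for 7 genes the mouse 129S1-No2 is above 0 while 129S1-No1 is below it.

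The eHep array of 129S1-No2 had the lowest level of the 7 eHep arrays for 8 of 8 genes, a position it held for 39.9% of all genes tested. Relative to the range of the 7 arrays, it was far below the rest for 3 of them, S100a1 (1.90), S100a10 (4.997) and S100a11 (5.15). For S100a4 the next array lay 0.043 above it. The largest gap in log2 units was 2.18, for S100a8, whose range was 8.81. On processed signal before scaling, the array was not the lowest for S100a4, S100a9 or S100a11.

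Genes (14804 compared) were ranked by how like their levels over the 14 cultured arrays were to those of S100a8. Members and clone or predicted names were then left out. The highest that remained were Tspan33 (r = 0.95), P2rx4 (0.95), Ggt7 (0.94), Hsd11b1 (0.93) and Wfdc12 (0.92). Hsd11b1, which reactivates glucocorticoids in liver, averaged 0.87 in mHep and -0.05 in eHep cells of 129S1-No1, 0.86 and -3.16 in those of C57B6-No1, and -4.75 and -6.47 in those of 129S1-No2. For S100a9 they were Fam162a (r = 0.94), Mylk2 (0.91), Scgb3a1 (0.91), Cacna1g (0.90) and Rab32 (0.89). Scgb3a1, a secreted protein of airway epithelium, averaged 1.09 in mHep and -6.90 in eHep cells of C57B6-No1, and -3.02 and -2.81 in those of 129S1-No1. These arrays share mice and media, and the likeness describes the 14 arrays only.

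Among 13 other S100 and fused S100 genes measured, 6 were well above background often enough to be tested between mHep and eHep cells, and 0 passed in limma, while 1 of 6 passed against primary cells in mHep and 1 of 5 in eHep. That gene was S100g, the vitamin D dependent calcium buffer calbindin, which was at least 7.86-fold higher in mHep and at least 10.7-fold higher in eHep than in primary cells, with limma adjusted p of 0.040 and 0.021. It could be called only as higher, since its probe was not well above background on the primary array. Without C57B6-No1 it passed in neither, with limma adjusted p of 0.18 and 0.11, nor did it with dim readings raised to the limit, at 0.093 and 0.053, or with the normexp background, at 0.23 and 0.12. S100b, the astroglial family member, was not well above background on the primary array and stood at 2.44 in mHep cells of 129S1-No2, with a median of -1.72 over mHep arrays and -3.40 over eHep arrays. S100a3, a hair cuticle protein, averaged -2.86 ± 1.24 in mHep and -0.66 ± 1.94 in eHep cells (SD, n = 3 mice each). S100a7a, the mouse relative of psoriasin, ran from -7.37 to -2.50 over mHep arrays and from -7.97 to 0.47 over eHep arrays, and S100a16 from 1.13 to 3.73 and from 1.21 to 3.40. The fused gene Tchh, a hair follicle protein, averaged -2.76 in mHep and -2.79 in eHep cells. S100a5, Hrnr, Flg2, Tchhl1 and Rptn were not well above background on any array, S100a7l2 was on 1 eHep array, and S100a14 on 1 mHep and 3 eHep arrays.

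Receptors through which S100 proteins act outside the cell were measured by 10 genes. Between mHep and eHep cells 1 of 9 tested passed as higher and 0 as lower, with a median difference of 0.05 against -0.10 over all genes. That gene, Cd36, a fatty acid carrier that also takes up calprotectin with its lipid cargo, averaged 3.44 in mHep cells and -5.11 in eHep cells, where 2 of 7 arrays were well above background. The difference was 8.55 (SE 0.45, limma adjusted p 0.0020), higher in 3 of 3 mice, and 7.84 with the dim readings raised to the limit (limma adjusted p 0.00075). Against primary cells Cd36 was at least 47.0-fold higher in mHep cells. It could be called only as higher, its probe being not well above background on the primary array. Cd14, the co-receptor of Toll-like receptor 4, was 125-fold higher in mHep cells (limma adjusted p 0.0058) and 50.6-fold higher in eHep cells (limma adjusted p 0.0080) than in primary cells. These were 2 of 8 receptor genes tested in mHep and 1 of 8 in eHep, with medians of 1.36 and 0.77. Ager, the receptor for advanced glycation end products, was too dim to be tested, and Tlr4 averaged -1.41 in mHep and -2.12 in eHep cells.

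Of 17 genes listed as partners of S100 proteins, plasminogen activators and the urokinase receptor among them, 16 were tested. None passed between mHep and eHep cells in limma, with a median difference of 0.01. Against primary cells 6 passed as higher in mHep and 7 in eHep, 0 as lower, with medians of 1.54 and 1.68. Anxa1, the partner of S100a11, was at least 365-fold higher in mHep and at least 187-fold higher in eHep than in primary cells, both with a limma adjusted p of 0.0011. Ahnak, a giant scaffold bound by the S100a10 and annexin complex, was at least 169-fold and at least 151-fold higher. Plat, the tissue plasminogen activator, was at least 105-fold and at least 54.4-fold higher, and Plaur, the urokinase receptor, at least 83.7-fold and at least 191-fold. Of the genes that passed, these 4 and Capza1, a capping protein of actin, were not well above background on the primary array, so they entered through the cultured arrays and could be called only as higher. Capza1 was at least 2.11-fold and at least 2.50-fold higher and passed in neither medium with dim readings raised to the limit, at limma adjusted p of 0.20 and 0.12. Anxa2, the partner of S100a10, differed by 6.61 and 6.76, and Cacybp, the calcyclin-binding protein that S100a6 binds, passed in eHep cells at 2.07 (limma adjusted p 0.049). Leaving out any 1 mouse ended the call of Cacybp and that of Capza1 in mHep cells, leaving out C57B6-No1 that of Capza1 in eHep cells, and leaving out C57B6-No1 that of Anxa2 in mHep cells.

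Inducers and regulators of S100a8 and S100a9 gave few calls. Of 13 tested between mHep and eHep cells 0 passed in limma, with a median of 0.87. The 2 brightest were Cebpd and Cebpb, transcription factors of the acute phase and of myeloid cells, which differed by 1.48 and -0.28. Cebpa differed by 2.86 with a limma adjusted p of 0.089. Against primary cells 0 of 13 passed in mHep cells, with a median of -0.40, while in eHep cells 1 of 12 passed as higher and 2 as lower, with a median of -1.48. In eHep cells Cebpa was lower by 6.92 on the log2 scale and Stat3, which carries interleukin signals, by 2.41, while Nfkb1 was higher by 2.05, with limma adjusted p of 0.0064, 0.044 and 0.043. The call of Nfkb1 was lost without any 1 of the mice, and that of Stat3 without C57B6-No1 or without 129S1-No2. The cytokine gene Il1b was too dim to be tested in any group.

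Of 10 acute phase genes that inflammation induces beside calprotectin, 6 passed as higher and 0 as lower in mHep against eHep cells, with a median of 4.90. The largest were Saa2, a serum amyloid protein (9.36, limma adjusted p 0.035), Fgb, the beta chain of fibrinogen (6.52, 0.016), Orm2 (5.24, 0.0063) and Orm1 (5.06, 0.0086), the last pair being acid glycoproteins of plasma. Each was higher in 3 of 3 mice. The same 6 genes passed as lower in eHep than in primary cells, with a median of -10.0, and 0 of 10 passed in mHep against primary cells, with a median of -3.69. These comparisons share the eHep means, so they are not separate evidence. Without C57B6-No1, Saa2 and Fgb no longer passed in eHep against primary cells. Of the 10 genes, Saa3 alone was lower in mHep than in eHep cells of 129S1-No1. Its mHep minus eHep differences were -0.66 (129S1-No1), 4.96 (C57B6-No1) and 5.67 (129S1-No2). Every other gene of the list was higher in mHep cells of 129S1-No1.

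Markers of cells that carry calprotectin were weak in culture. Of 14 neutrophil markers measured, 7 were well above background on any mHep array, 6 on any eHep array and 2 on the primary array, and Elane, Ngp, Camp, Csf3r, Cxcr2 and Mmp9 were on none of the 15. Their summed signal ran from 0.189 to 0.912 on mHep arrays and from 0.10 to 0.666 on eHep arrays, and was 10.6 on the primary array, where Prtn3 and Mpo were the 2 above background. Ltf, lactoferrin of neutrophil granules and of secretory epithelium, averaged -1.51 in mHep and -5.57 in eHep cells of C57B6-No1. It averaged -5.96 and -3.47 in those of 129S1-No1, and -3.99 and -6.67 in those of 129S1-No2. The direction was that of S100a9 in each mouse. Its probe was not well above background in mHep cells of 129S1-No1 or in eHep cells of C57B6-No1 and 129S1-No2. Of 14 neutrophil markers, it was the 1 well above background on all mHep arrays of C57B6-No1. Of 14 macrophage markers, 7 were above background on any mHep array, 6 on any eHep array and 9 on the primary array, with summed signals of 0.445 to 1.55, 0.258 to 4.20 and 25.1. Adgre1, Clec4f, Cd5l, C1qa, Itgam and Timd4 were not above background on any cultured array. Cd68, Csf1r, C1qb and Lyz2 were on all eHep arrays of 129S1-No1. On eHep arrays the macrophage sums ran from 3.71 to 4.20 for 129S1-No1 and from 0.651 to 1.55 for C57B6-No1, and 129S1-No2 gave 0.258. On mHep arrays they were 1.48 to 1.51, 0.609 to 1.55 and 0.445. S100a8 in eHep cells was also highest in 129S1-No1 and lowest in 129S1-No2, whereas in mHep cells it was highest in C57B6-No1. The part of these cells in the cultured and primary levels of S100a8 and S100a9 was not tested.

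Keratins of bile duct cells were higher in culture beside S100a6 and S100a11. Krt7 and Krt19 passed as higher than in primary cells in limma, 2 of 6 biliary markers tested in mHep and 2 of 5 in eHep. Of all genes tested, 4.29% passed as higher in mHep and 6.53% in eHep cells. These keratins entered through the cultured arrays and could be called only as higher. Of 8 biliary markers measured, 6 were well above background on all mHep arrays, 5 on all eHep arrays and 3 on the primary array, with summed signals of 151 to 854, 270 to 622 and 7.55, and Krt7, Krt19, Epcam, Cftr and Muc1 were not on the primary array. Of 14 markers of stratified epithelium, 7 were above background on all mHep arrays, 7 on all eHep arrays and 4 on the primary array, with summed signals of 3.99 to 75.3, 40.4 to 513 and 4.41. Of 12 stellate cell and fibroblast markers, 3, 2 and 4 were, in the same order of groups, with summed signals of 17.7 to 36.1, 15.7 to 39.0 and 30.6, and Lum, Des, Pdgfra, Pdgfrb and Thy1 were on none. Of 9 endothelial markers it was 1, 1 and 4, with summed signals of 0.168 to 0.555, 0.120 to 0.635 and 16.03. The part of a change in cell type in the S100 differences was not tested.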

How the data were processed

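RNA of 7 mHep, 7 eHep and 1 primary hepatocyte samples was measured on Agilent 1-colour arrays. Per the file headers, the deposited intensity values are processed signals of Feature Extraction (protocol GE1_107_Sep09), background-subtracted but not scaled between arrays, with background flags coded as other values. The table of log2 values deposited by the authors, whose making is not given in the sources used here, tracked the log2 processed signal at r from 0.972 to 0.9997 per array and served as an alternative. Spots (43379) were averaged into 41174 probes without outlier spots, and the brightest probe was used per gene. Depth has no count here: the number of arrays limits precision.

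Log2 signals were centred on the array's 75th percentile. A gene was tested if, in either group, 2 of the 3 mice had it well above background on each of their arrays, or the primary array did. limma 3.58.1 (R 4.3.3) with Benjamini-Hochberg adjustment was fitted over all genes, on per-mouse means with mouse as a block between mHep and eHep, and on 6 means and the primary array otherwise. "At least" folds set the brighter mean against the higher of the dim reading and the lowest signal well above background on its array. The same mouse supplied both media per the labels. Deviations from each medium's mean correlated at 0.397, 0.564 and 0.539 within a mouse and at 0.011 at most between mice. Such deviations cancel over the 3 mice, which lowers the values between mice, so the contrast is not separate support for the pairing. Members and lists were chosen with earlier results of these data known. Named genes were the 8 members, other S100 genes, per list the 4 largest calls or else the 2 brightest, and the 5 most correlated with S100a8 and with S100a9. Members and clone or predicted names were left out of those 5. The fits were tested on simulated data. Alternatives covered scaling, background, filter, probes, block, slide, scan and each mouse or replicate left out. The source name of 1 mHep array says eHep, and its title decided the group.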

Additional observations from a re-analysis of the deposited data

Results flagged for a closer look

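In 3 of 16 sets of 7 arrays tested, the eHep array of 129S1-No2 was far from the rest, its gap to the next array exceeding Dixon's critical share of the group's range. That share is set to flag about 1 in 20 groups of independent values. The other eHep arrays are repeats of a mouse and this array is alone in its mouse, so that rate does not apply. All 3 flags fall on the same array, so they are not separate. The levels there were 1.90 for S100a1, 4.997 for S100a10 and 5.15 for S100a11.

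Every array of C57B6-No1 moved one way between media and every array of 129S1-No1 the other for S100a9, S100a13 and S100b, higher in mHep in the C57B6 mouse and lower in the 129S1 mouse. The change in C57B6-No1 minus that in 129S1-No1 was 13.7 for S100a9, 2.40 for S100a13 and 5.68 for S100b on the log2 scale. For S100a9 the C57B6-No1 eHep arrays were not well above background, and with those readings raised to the limit the value was at least 12.7. In 129S1-No2, the other 129S1 mouse, the genes were higher in mHep as in C57B6-No1, by 1.90 for S100a9, whose eHep reading was not well above background, by 1.68 for S100a13 and by 5.84 for S100b, from 1 array per medium. These differences were not tested, and arrays of the 129S1 mice were scanned in separate sessions.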

How the results depend on the processing

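Over 26 alternative settings, 50 single-gene results gave 1181 values, of which 1080 kept direction and call, 66 lost the call, 23 gained it and 12 changed sign. All 12 concern members that did not pass against primary cells. For S100a10 the eHep difference from primary cells became 0.96 with quantile normalization, 0.96 with the authors' value table and 0.18 with normexp, and ran from -0.94 to 0.12 with a mouse or replicate left out, and the mHep difference became 1.04, 1.04 and, scaled on probes detected on all arrays, 0.016. In mHep cells S100a13 became 0.37 with quantile normalization and 0.38 with the authors' table. S100a8 ran from -0.59 to 4.32 with a mouse or replicate left out, and S100a9 became 0.51 with slide as a block and 3.40 in C57B6-No1 alone. For 5 other S100 genes and S100g in 15 comparisons that did not pass, 47 of 349 values changed sign and 0 passed.

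Members higher than in primary cells numbered 1 in each medium under the strict filter, which leaves S100a6 untested. Leaving out a mouse or replicate gave 1 to 2 in mHep and 2 to 3 in eHep cells. Of the related genes, 7 passed between mHep and eHep cells in the paired fit and 1 with no replicate block. They numbered 4 when scaled on probes detected on all arrays, 4 with quantile normalization, 4 with the authors' table, 12 with no filter and 2 with the strict filter. With arrays as samples they numbered 25, with slide as a block 22, with scan as a block 31, 22 in the earlier scan alone and 35 in the later alone. Leaving out a mouse or replicate gave 7 to 16. The cause of these shifts was not tested. No paired fit can be made against the primary array. Of the arrays, 3 were scanned with the primary array on its slide.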
